A study of Mus musculus with 10 samples.

Results

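Conventional type 2 dendritic cells (cDC2) were examined in single-cell libraries from mouse livers that carried metastases of colorectal cancer origin. They were chosen by the UMI counts of 10 genes: a cell needed at least 1 UMI (a counted RNA molecule) of Cd209a, at least 1 of Flt3 and at least 5 of H2-Ab1, and 0 UMIs of Xcr1, Clec9a, Siglech, Cd3e, Cd79a, C1qa and Fscn1. Cells also needed at least 300 detected genes and at most 15% of UMIs from mitochondrial genes. The rule found 208 cells among the 27707 cells that passed the last 2 limits. These 10 genes made the selection, so their values are given as a description and support nothing.

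The libraries came from 3 groups of mice. The Control group had received a control LV and held livers 11 and 25. The IFNa group had received an LV for interferon alpha and held livers 18 and 23. The IFNa + aCTLA4 group, liver 22, had received IFNa together with an antibody against CTLA-4, a checkpoint receptor of T cells, and is called the combination below. LV stands for lentiviral vector. All livers had metastases. The tissue was minced and digested with enzymes (collagenase, DNAse and Dispase II), and live single cells were sorted as 7AAD-negative events. As no antibody stain was part of the sort, it did not enrich dendritic cells. Strain, age, genotype, vector dose and the cells that carry the vector are not given in the sources used here, nor whether each liver was a separate mouse. The p-values therefore measure only the spread between these libraries, which may be technical. The combination has 1 library and was assumed to vary like the others.

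Dendritic cells sample their tissue and show peptides to T cells on MHC molecules. Those of type 2 depend on the growth factor receptor Flt3 and mainly present captured antigen on MHC class II to CD4+ T cells, whereas type 1 cells (cDC1) specialise in presenting captured antigen on MHC class I to CD8+ T cells. Type I interferons bind the receptor made of Ifnar1 and Ifnar2. The receptor activates factors that include Stat2 and Irf9, which switch on a large set of antiviral and antigen-processing genes. Dendritic cells of type 2 are known to take on some features of monocytes, such as the Fc receptor Fcgr1, under interferon. Cd209a and Clec10a are also found on some cells that derive from monocytes, so the gate can hold such cells.

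By library, the rule kept 66 cells in Control 11, 19 in Control 25, 43 in IFNa 18, 53 in IFNa 23 and 27 in the combination. The libraries held 10464216 to 69856071 UMIs in 863 to 9605 barcodes, and Control 25 was the smallest on both counts. The members' summed UMIs ran from 335451 in the combination to 962832 in Control 11, and their median per cell from 12187 to 18541. Mitochondrial UMIs had a median of 1.10% and 1.03% of each member's total in the Control libraries, 0.790% and 0.780% in the IFNa libraries and 0.708% in the combination. No member had a T-cell receptor contig in the matching VDJ library. Each pair of libraries shared 4 to 83 barcode sequences, and 0 cells were members in both libraries of a pair.

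A few droplets within the gate also held RNA of other lineages, and they weigh on some of the results. At least 5 UMIs summed over a list of NK-cell, T-cell or epithelial genes were found in 4 members of Control 11, 0 of Control 25, 4 of IFNa 18, 6 of IFNa 23 and 1 of the combination. In Control 11 the genes were epithelial, and 1 droplet held 326 of the library's 371 UMIs of that list. In IFNa 18 and IFNa 23 they were mostly NK-cell genes: 3 members held 50 to 200 UMIs of that list in IFNa 18, and 5 held 8 to 118 in IFNa 23. The remaining members of these libraries had 1 and 6 NK-list UMIs in all. The comparisons were therefore repeated without these droplets, a choice made after seeing the data.

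Of 22 listed identity genes beyond those of the gate, 19 had enough counts to be tested. Esam, a marker of part of the subset, had 0 UMIs in all 208 members. The lectin Clec10a was detected in 52 of 66, 15 of 19, 24 of 43, 23 of 53 and 14 of 27 members, in the order Control 11, Control 25, IFNa 18, IFNa 23 and combination, which is kept throughout. Sirpa, an inhibitory receptor typical of the subset, was detected in 59, 19, 37, 47 and 22 members. The related lectin Mgl2 was seen in fewer, in 15, 5, 8, 11 and 0 members. The level of the aspartic protease Napsa, common to conventional dendritic cells, was 1138, 873, 1070, 1241 and 1350 UMIs per 1000000 of the members' summed UMIs (CPM).

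The share of cells that met the rule was lower in every treated library than in both Control libraries. Members made up 1.18% of cells in Control 11 (exact 95% binomial interval 0.914 to 1.5) and 2.25% in Control 25 (1.36 to 3.49). They made up 0.693% in IFNa 18 (0.502 to 0.933), 0.958% in IFNa 23 (0.718 to 1.25) and 0.283% in the combination (0.187 to 0.412). The groups did not overlap, although the interval of Control 11 overlapped those of both IFNa libraries. The mean share with IFNa was 0.482 times the Control mean, and that of the combination 0.165 times. Intervals cover counting error only, and with 2 libraries against 2 no exact test can go below p = 0.333, so the shares are a description.

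Among cells with at least 5 UMIs of H2-Ab1, a set closer to antigen-presenting cells, the order was the same, with shares of 3.54%, 5.90%, 1.94%, 2.44% and 1.03%. Cells with at least 2000 UMIs were also thinned to 2000 before the rule was applied, to remove differences in depth. Cells with fewer were left out, which kept 5213 of 5593, 820 of 846, 5587 of 6201, 5199 of 5532 and 7269 of 9535 cells. The combination thus lost the largest part of its cells. The shares were then 0.345%, 0.854%, 0.179%, 0.192% and 0.0688%, which rest on 18, 7, 10, 10 and 5 cells. The gate genes themselves differed between libraries. The median member held 12 UMIs of Cd209a in both Control libraries, but 3 and 6 with IFNa and 8 in the combination. Fewer cells and less RNA of the gate genes per cell cannot be told apart here.

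**Figure D1:**
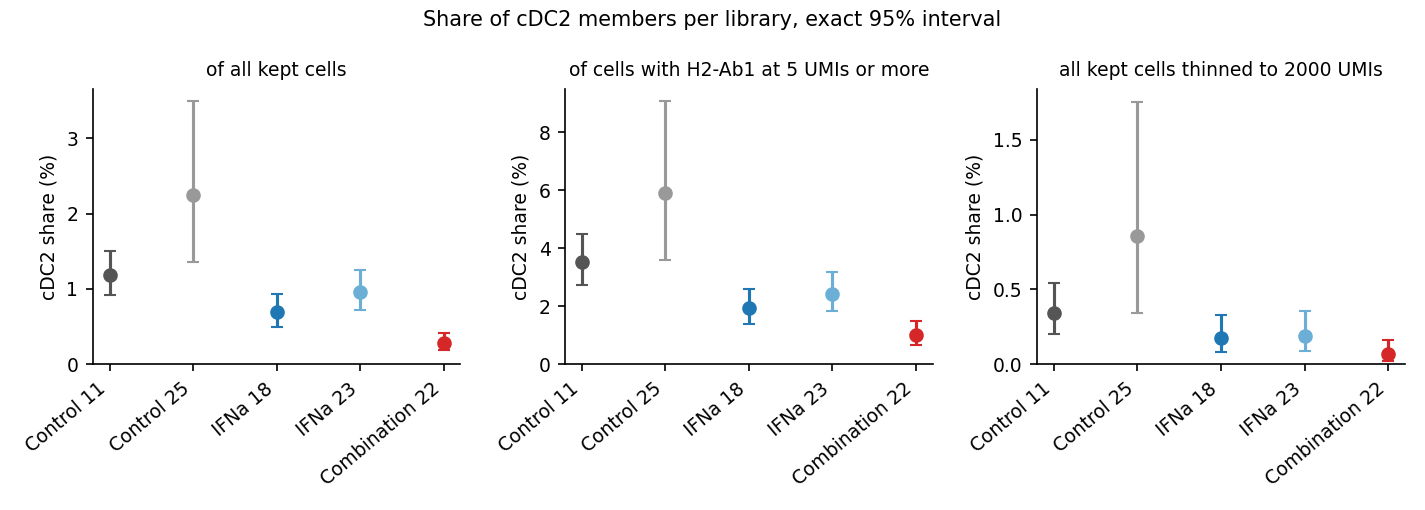
Share of cDC2 members in each library (points, with exact 95% binomial intervals) as percent of all kept cells, of cells with at least 5 UMIs of H2-Ab1, and of cells with at least 2000 UMIs after thinning to 2000. The combination lies lowest in all 3 panels, at 0.283%, 1.03% and 0.0688%, and Control 25 highest.

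Cells near the limits of the rule were few for H2-Ab1 and more common for the other 2 genes. Members with 5 to 9 UMIs of H2-Ab1 numbered 0, 0, 0, 3 and 1, and cells that failed on H2-Ab1 alone 0, 0, 8, 1 and 5. Members with a single UMI of Cd209a numbered 5, 0, 11, 13 and 6, while 106, 14, 82, 119 and 39 cells met all else without Cd209a. Members with a single Flt3 UMI numbered 20, 4, 18, 12 and 9, and 18, 7, 28, 22 and 19 cells failed on Flt3 alone.

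With IFNa, the members' transcriptomes were marked by interferon-stimulated genes. UMIs were summed over the members of each library and compared with edgeR's quasi-likelihood test over 8009 genes, and a gene is called where its adjusted p is under 0.05. In all, 139 genes (1.74% of those tested) were higher with IFNa than in Control and 31 (0.387%) were lower. The median log2 fold change over all genes was −0.02. Without the droplets that held other lineages, 126 were higher and 31 lower. With DESeq2 in place of edgeR, 85 were higher and 6 lower, so most decreases depended on the test. Of the 63 tested genes on a list of 67 known type I interferon targets, 48 rose, 0 fell and 15 were not called, with a median log2 fold change of 1.62. This list, like the others, was chosen with earlier results of these data known, so its counts are a description.

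The start regions of 4 of these genes are shown because the interferon-activated complex that holds Stat2 and Irf9 is known to bind a sequence that holds repeated GAAA. They were the called list members of lowest adjusted p that held a match to GAAANNGAA in the 150 bases shown. Genes of a single chromosome were left out of this choice. Each sequence is the 150 bases before the gene's start in RefSeq (build GRCm38.p6), written 5′ to 3′ on the gene's strand, and capitals mark every match on either strand. The regions are chr4:156200819-156200968 (minus strand) for Isg15, chr1:173599273-173599422 (minus) for Ifi213, chr19:34583379-34583528 (plus) for Ifit3 and chr19:34607807-34607956 (plus) for Ifit3b.
Isg15: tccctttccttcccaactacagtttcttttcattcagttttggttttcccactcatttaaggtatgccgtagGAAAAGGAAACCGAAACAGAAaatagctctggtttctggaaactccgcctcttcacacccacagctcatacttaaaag
Ifi213: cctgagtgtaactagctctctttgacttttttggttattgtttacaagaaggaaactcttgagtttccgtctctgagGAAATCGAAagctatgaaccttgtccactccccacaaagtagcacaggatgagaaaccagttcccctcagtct
Ifit3: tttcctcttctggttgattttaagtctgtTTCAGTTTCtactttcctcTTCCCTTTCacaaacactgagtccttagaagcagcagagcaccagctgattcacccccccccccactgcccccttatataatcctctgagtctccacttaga
Ifit3b: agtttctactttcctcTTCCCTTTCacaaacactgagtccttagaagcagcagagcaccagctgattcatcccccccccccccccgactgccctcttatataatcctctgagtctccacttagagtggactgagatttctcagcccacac
Isg15 held 3 overlapping matches, Ifit3 held 2, and Ifi213 and Ifit3b held 1 each. The letters occur in the 250 bases before the start in 1934 of 27025 promoters in the table (7.16%). Only 36 of the 48 interferon genes that rose had a promoter there, too few for a share of the list, so none is given. A match is a description and not a site of binding.

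Isg15, a ubiquitin-like antiviral protein, stood at 172 and 168 CPM in the Control libraries, 1193 and 1220 with IFNa and 2266 in the combination. Its log2 fold change with IFNa was 2.82 ± 0.24 (SE; adjusted p = 7.25e-06), or 7.06-fold. Irf7, the factor that amplifies interferon production, went from 112 and 191 CPM to 1063 and 1144, with 1699 in the combination. Neither gene's groups overlapped, and the combination was the highest library for both.

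Of the 5 tested Ifit genes, whose family is known for binding viral RNA, 4 rose with IFNa. Ifit1 had 48.8, 28.8, 201, 113 and 304 CPM (log2 fold change 1.88 ± 0.34), and Ifit1bl1, at 14.5, 2.62, 35.6, 23.3 and 92.4 CPM, was not called (adjusted p = 0.280). Ifit2 stood at 36.4, 31.5, 431, 355 and 635 CPM, with a log2 fold change of 3.48 ± 0.28 with IFNa (adjusted p = 4.41e-06). Ifit3 stood at 23.9, 52.4, 438, 302 and 614 CPM (log2 fold change 3.43 ± 0.33) and its close copy Ifit3b at 5.19, 2.62, 97.9, 77.8 and 194 CPM (4.22 ± 0.42). Reads shared by such copies can be split or dropped in counting, so the values of Ifit3 and Ifit3b are uncertain against each other. Oasl1, a relative of the enzymes that sense double-stranded RNA, rose from 5.19 and 7.87 to 151 and 118 CPM and Oas1g from 7.27 and 18.4 to 153 and 115 CPM. Ifi44 was close to absent in Control, with 3 UMIs in Control 11 and 0 in Control 25, and reached 205 and 161 CPM with IFNa and 203 in the combination. Rsad2, which makes an antiviral nucleotide, rose from 21.8 and 10.5 to 205 and 97.3 CPM.

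The most abundant genes of the list that were not called with IFNa were Ifitm3 and Ly6e. Ifitm3, which blocks virus entry, had 3727, 2923, 4905, 5100 and 6153 CPM and was not called with IFNa (adjusted p = 0.421). Ly6e, another restriction factor, had 1615, 1791, 3124, 2800 and 3228 CPM (adjusted p = 0.0987). The surface protein Sca-1, encoded by Ly6a, was both abundant and called, at 374, 136, 2298, 2433 and 3905 CPM with a log2 fold change of 3.13 ± 0.36. Ifi27l2a, at 529, 907, 4703, 4309 and 4797 CPM, rose by a log2 fold change of 2.68 ± 0.27. In all, each of the 63 tested genes of the list had a log2 fold change above 0 with IFNa.

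The change was spread over the members rather than carried by a few. In the median member, the list held 0.987% of all UMIs in Control 11, 0.823% in Control 25, 3.10% in IFNa 18, 2.98% in IFNa 23 and 4.44% in the combination. Members ranged from 0.501% to 3.07% in Control 11 and from 1.41% to 5.45% in IFNa 23, so single cells of the groups overlapped. In the combination the lowest member held 2.85%. Isg15 was detected in 42 of 66 and 9 of 19 Control members and in all 43, 53 and 27 members of the treated libraries.

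**Figure D2:**
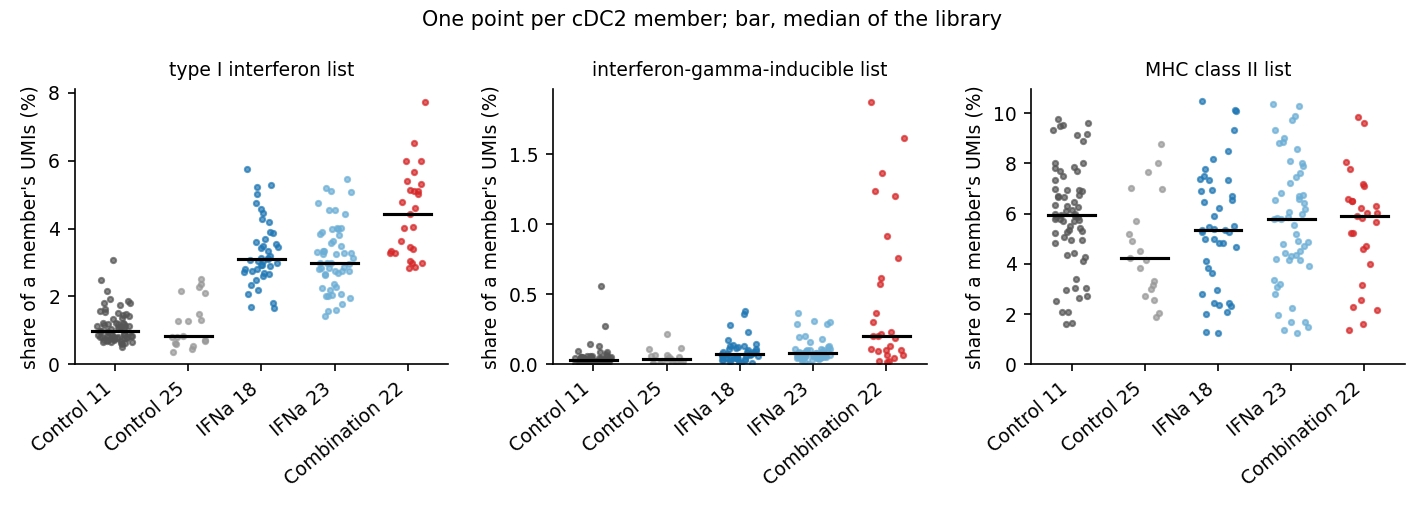
Percent of each member's UMIs that came from the type I interferon list, the interferon-gamma-inducible list and the MHC class II list (1 point per cell, black line at the median of its library). The medians of the type I list are 0.987% and 0.823% in Control, 3.10% and 2.98% with IFNa and 4.44% in the combination, while those of the class II list lie between 4.22% and 5.93%.

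Among the genes that carry the interferon signal, 3 of 19 tested rose with IFNa and 0 fell. Those described here are Stat2, which carries the signal to the nucleus, and the feedback inhibitor Usp18. Stat2 went from 76.9 and 121 to 279 and 215 CPM, and Usp18 from 44.7 and 83.9 to 329 and 288 CPM. The call of Stat2 was lost without IFNa 18 (adjusted p = 0.0537). The receptor chains were not called. Ifnar1 had 64.4, 52.4, 83.7, 122 and 101 CPM, Ifnar2 had 147, 170, 182, 166 and 164 CPM, and Ifngr1, the receptor chain for interferon gamma, had 684, 514, 392, 471 and 435 CPM.

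Of 21 tested pattern-recognition genes, 4 rose with IFNa, 2 fell and 15 were not called. DESeq2 called 3 of the 21, all of them higher, and neither of the 2 decreases. The RNA sensors Ddx58 (RIG-I) and Ifih1 (MDA5) had log2 fold changes of 2.17 ± 0.26 and 1.83 ± 0.24, and the nucleic acid sensor Zbp1 of 1.63 ± 0.25. Tlr7, the endosomal receptor for single-stranded RNA, had 6.23, 10.5, 32, 35.0 and 14.9 CPM and was called with IFNa (adjusted p = 0.0420), though 10 alternatives lost the call, among them leaving out the droplets of other lineages (adjusted p = 0.0577), Control 11 (0.222), IFNa 18 (0.13) or IFNa 23 (0.61). The lectin Clec4n (Dectin-2), which binds fungal mannans, fell from 123 and 157 to 55.2 and 24.6 CPM, with 11.9 in the combination, a log2 fold change of −1.83 ± 0.33 with IFNa. In Control 25, 1 cell held 51 of the 60 Clec4n UMIs. The call of Clec4n was lost without IFNa 23 (adjusted p = 0.0906), and without the members of highest UMI count the change was −1.20 (adjusted p = 0.453). The mannose receptor Mrc1 fell from 30.1 and 78.7 to 7.12 and 3.89 CPM (−3.18 ± 0.59), a call lost without Control 25 (adjusted p = 0.0617). Tmem173 (STING), at 170, 199, 215, 195 and 268 CPM, and the adaptor Myd88, at 170, 168, 176, 178 and 238 CPM, were not called.

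The MHC class I genes rose in part, and the class II genes showed no call. Of 22 tested class I and peptide-loading genes, 8 rose with IFNa and 0 fell, with a median log2 fold change of 0.79. The non-classical genes H2-Q7 and H2-Q6 had the largest changes: H2-Q7 stood at 41.5, 31.5, 454, 573 and 513 CPM (3.74 ± 0.28) and H2-Q6 at 11.4, 10.5, 187, 332 and 247 CPM (4.51 ± 0.38). Both lie side by side on chromosome 17 (GRCm38, 35439155 to 35443773 and 35424850 to 35430055) and are close copies, so counting could split their reads. The classical gene H2-K1 rose from 1137 and 1114 to 2471 and 3014 CPM (1.28 ± 0.23, adjusted p = 0.00472), a call lost without IFNa 18 (adjusted p = 0.0565) or IFNa 23 (0.281). H2-T22, H2-T24, H2-Q4, the class I activator Nlrc5 and the peptide transporter Tap1 were the other genes called.

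Tap1 lay at the threshold, at 143, 149, 269, 279 and 465 CPM (adjusted p = 0.0499, and 0.0526 without the droplets of other lineages). The classical gene H2-D1, at 1903, 1628, 3154, 3490 and 4051 CPM, was not called with IFNa (adjusted p = 0.0629), nor was the light chain B2m (1248, 1101, 2095, 2062 and 2367 CPM, adjusted p = 0.0898), although the groups did not overlap for either. Class I genes made up 0.787% and 0.715% of UMIs in the median Control member, 1.42% and 1.47% with IFNa and 1.59% in the combination.

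Of the 15 tested class II genes apart from the gate gene, 0 were called in any of the 3 comparisons by edgeR or by DESeq2, and an unadjusted p under 0.05 was found for 4 with IFNa and for 0 in either comparison of the combination. Their median log2 fold change was 0.00 with IFNa and −0.07 in the combination against Control. The invariant chain Cd74 was the most abundant of them, at 27658, 23124, 25253, 26880 and 24850 CPM. H2-Aa, the alpha chain partner of H2-Ab1, had 9223, 7189, 7921, 8585 and 8305 CPM, and the class II activator Ciita had 366, 412, 376, 397 and 337 CPM. The Control and IFNa libraries overlapped for all 3 genes. Because the rule asked for H2-Ab1, cells with little class II RNA could not enter.

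The lineage genes of the subset were mostly not called. Of 19 tested identity genes, 0 were called with IFNa by edgeR or DESeq2, at a median log2 fold change of −0.22, while 7 had an unadjusted p under 0.05. Clec10a, a lectin for galactose sugars, had 351, 283, 130, 191 and 173 CPM, and its groups did not overlap, but the test missed the threshold with IFNa (−0.99 ± 0.25, adjusted p = 0.0540). Irf4, the factor that cDC2 depend on for migration and CD4+ T-cell priming, had 101, 218, 64.1, 114 and 56.6 CPM (adjusted p = 0.504). Zbtb46, a factor restricted to conventional dendritic cells among myeloid cells, had 68.5, 83.9, 121, 144 and 161 CPM (adjusted p = 0.135). Sirpa (199, 322, 178, 201 and 140 CPM) overlapped between Control and IFNa. The integrin chain Itgax (278, 254, 303, 341 and 244 CPM) was higher in both IFNa libraries than in both Control libraries but was not called (adjusted p = 0.824).

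Among 21 tested transcription factors of the dendritic lineages, 1 rose and 1 fell with IFNa by edgeR, and DESeq2 called 0. Irf8, which directs the cDC1 and plasmacytoid lineages and is also induced by interferon, rose from 29.1 and 15.7 to 81.9 and 83.0 CPM, with 104 in the combination (1.73 ± 0.33, adjusted p = 0.00664). In IFNa 23, 1 cell held 23 of the 64 Irf8 UMIs. With Clec10a or Mgl2 required in each member, Irf8 was not called (1.07, adjusted p = 0.322). Cebpb, a factor of monocytes and inflammatory responses, fell from 441 and 299 to 180 and 134 CPM, with 125 in the combination (−1.28 ± 0.26, adjusted p = 0.0137). In Control 11, 1 cell held 95 of the 425 Cebpb UMIs. The call of Cebpb was lost without Control 11 (−0.87, adjusted p = 0.0694) or IFNa 23 (−1.05, 0.208). Spi1, which encodes PU.1, was not called, at 798, 600, 815, 871 and 870 CPM.

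**Figure D3:**
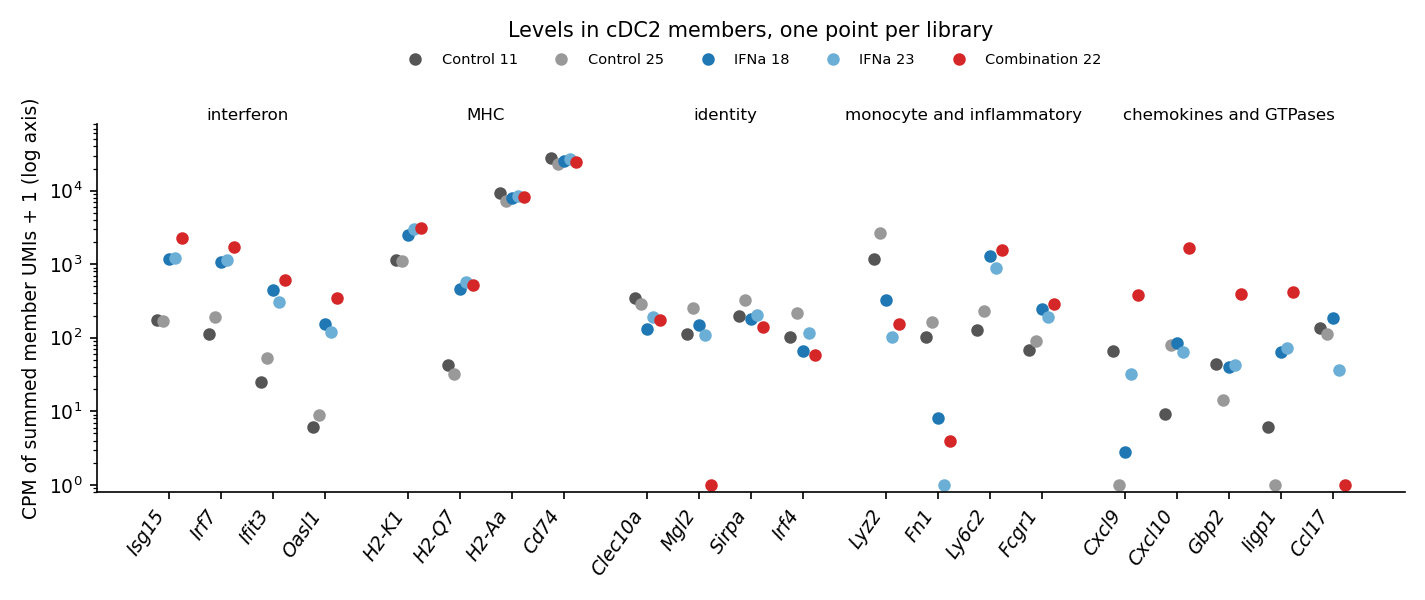
CPM of the members' summed UMIs plus 1 (log axis) for genes of 5 kinds, 1 point per library. Isg15, Irf7 and H2-Q7 separate the Control libraries from the others, H2-Aa and Cd74 do not, and the combination stands alone for Mgl2 and Ccl17 (0 UMIs), Cxcl10 and Gbp2.

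Genes shared with monocytes split into a group that rose and a group that fell. Of 14 tested genes on a list of inflammatory and monocyte-related dendritic cell genes, 2 rose with IFNa and 4 fell. Fcgr1, the high-affinity receptor for IgG, rose from 66.5 and 89.1 to 242 and 191 CPM, with 283 in the combination (log2 fold change with IFNa 1.51 ± 0.26, adjusted p = 0.00311). Ly6c2, the surface marker of classical monocytes and an interferon-induced gene, rose from 125 and 228 to 1289 and 887 CPM, with 1544 in the combination (2.69 ± 0.30). For both genes the groups did not overlap.

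The lysozyme gene Lyz2 fell from 1169 and 2614 CPM in Control to 328 and 99.9 with IFNa, with 155 in the combination (−3.14 ± 0.44, adjusted p = 0.000651), or 8.81-fold. It was detected in 47 of 66, 17 of 19, 25 of 43, 24 of 53 and 15 of 27 members and, as background, in 17.5% of T cells. Single cells held 269 of 1126 Lyz2 UMIs in Control 11 and 285 of 997 in Control 25. Cd14, a co-receptor for bacterial lipopolysaccharide, fell from 89.3 and 65.5 to 17.8 and 5.19 CPM. Csf1r, the receptor for macrophage colony-stimulating factor, fell from 339 and 396 to 196 and 130 CPM, with 95.4 in the combination (−1.17 ± 0.25), a call lost without IFNa 23 (−0.88, adjusted p = 0.423). None of the decreases of Lyz2, Cd14 and Csf1r was called by DESeq2, whose adjusted p was 0.0581, 0.0619 and 0.0864. Ccr2, the chemokine receptor that brings monocytes out of the marrow, was not called, at 406, 561, 384, 341 and 233 CPM.

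Other monocyte genes that fell with IFNa were Fn1 (fibronectin), Hp (haptoglobin), F13a1 and Chil3. Of the 6 tested genes on a list of monocyte markers, DESeq2 called 1 with IFNa, and that gene rose. The decreases of Fn1, F13a1 and Chil3, which are on that list, were thus not called by DESeq2. Fn1 had 102, 165, 7.12, 0 and 2.98 CPM and Hp 45.7, 121, 3.56, 1.30 and 5.96 CPM. F13a1 had 26.0, 249, 5.34, 13 and 20.9 CPM, and without Control 25 its change was −1.46 and not called (adjusted p = 0.287). Chil3 rests on a handful of cells: 2 members of Control 11 held its 17 UMIs and 1 member of Control 25 another 17, and 9 alternatives lost the call, among them leaving out the droplets of other lineages (adjusted p = 0.305), Control 11 (0.0656), Control 25 (0.269) or IFNa 23 (0.229). Emp1, a membrane protein of epithelia and myeloid cells, fell from 205 and 131 to 14.2 and 35.0 CPM (−2.75 ± 0.36). Summed over the 8 genes of the monocyte list, which Ly6c2 and Ccr2 dominate, the level was 1017 and 1654 CPM in Control, 1885 and 1384 with IFNa and 1899 in the combination. Whether monocytes within the gate take part in these changes was not tested.

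**Figure D4:**
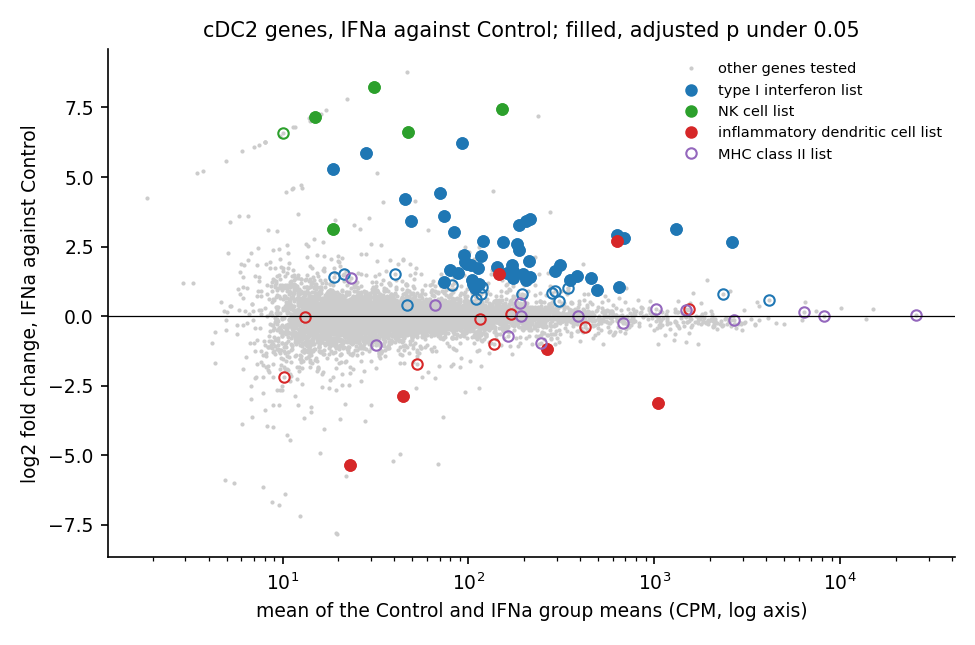
Log2 fold change of IFNa against Control for each of the 8009 tested genes against the mean of the 2 group means (CPM, log axis), with filled symbols for called genes. The type I interferon genes lie above 0, the class II genes are open symbols near 0, and the NK-cell genes at the top rest on the few droplets described in the text.

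Few costimulatory genes were called with IFNa. Of 19 tested costimulatory and checkpoint genes, only Cd40 was called, and the combination added Cd86. Cd40, through which T cells license dendritic cells, stood at 55, 62.9, 139, 109 and 247 CPM (log2 fold change with IFNa 1.08 ± 0.26, adjusted p = 0.0467, and 2.09 ± 0.31 for the combination against Control). The call with IFNa was lost in 9 alternatives, among them without Control 11 (adjusted p = 0.112), without IFNa 18 (0.389), without IFNa 23 (0.0524) and with DESeq2 (0.692). Cd86, a ligand of CD28 and CTLA-4, stood at 170, 134, 206, 281 and 450 CPM and was called for the combination against Control (1.54 ± 0.29, adjusted p = 0.00673) but not with IFNa (adjusted p = 0.323). With Ccr7 at 0 in each member, Cd86 was not called (1.17, adjusted p = 0.0971). The second such ligand, Cd80, had 46.7, 70.8, 39.2, 54.5 and 29.8 CPM and was not called. The ligands of the inhibitory receptor PD-1 were not called either, with 77.9, 62.9, 60.5, 137 and 185 CPM of Cd274 (PD-L1) and 21.8, 49.8, 19.6, 32.4 and 35.8 CPM of Pdcd1lg2 (PD-L2). Without the droplets of other lineages, Cd274 was called for the combination against Control (1.56 ± 0.35, adjusted p = 0.0125, against 0.115 with them). Cd83, a marker of activation, had 282, 372, 514, 600 and 599 CPM (adjusted p = 0.110 with IFNa).

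Of 15 tested genes of dendritic cell maturation, 3 rose with IFNa. Il4i1, a secreted enzyme that breaks down phenylalanine, rose from 41.5 and 44.6 to 183 and 114 CPM, and Marcksl1, a regulator of the actin skeleton, from 92.4 and 52.4 to 319 and 242 CPM. The 103 Il4i1 UMIs of IFNa 18 came from 7 members. The third, the chemokine Ccl5, is given below with the droplets that carried it. Ccr7, the receptor that takes dendritic cells to lymph nodes, was all but absent, with 0, 0, 31, 1 and 1 UMIs, of which 1 cell of IFNa 18 held 29. The gate had removed cells with Fscn1, another gene of mature cells, so mature cells were mostly outside it.

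Ccl5, a chemokine for T cells, had 3.12 and 2.62 CPM in Control, 513 and 432 with IFNa and 53.7 in the combination, and was called with IFNa (7.20 ± 0.39). Most of this RNA lay in few droplets: 1 cell of IFNa 18 held 203 of its 288 UMIs. Without the droplets of other lineages, Ccl5 had 3.45, 2.62, 14.5, 28.9 and 6.24 CPM and was not called (2.73 ± 0.97, adjusted p = 0.253).

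The same droplets carried the genes that the size of the change alone would put first. By the rule for naming genes, the 12 largest increases with IFNa were Gzmb, Ncr1, Il2rb, Xcl1, Gzma, Klrc1, Skap1, Gm2682, Ccl5, Klrb1c, Klra7 and Lck, which are mostly known from NK and T cells. Ncr1, the NK-cell receptor NKp46, had 0 UMIs in both Control libraries and 33 and 50 in the IFNa libraries, held by 3 and 4 members. Its mean with IFNa was at least 27.9-fold higher, set against 3 counts over the Control group. Summed over 6 NK-cell genes, the level was 7.27, 2.62, 730, 358 and 104 CPM. Without the droplets, Ncr1 had no UMI left. The keratins Krt7, Krt8 and Krt18, called as lower with IFNa, behaved likewise: 1 cell of Control 11 held 139 of its 140 Krt18 UMIs, and without the droplets Krt18 had 1.15, 7.87, 0, 3.04 and 0 CPM and was too low to be tested.

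With those droplets set aside, the same rule put Ifi44, Gm4951, Slfn4, Iigp1, Slfn3, Apod, Oasl1, H2-Q6, Ifit3b, H2-Q7, Oas1g and Axl first among the increases. Ifi44 then had a log2 fold change of 6.05 ± 0.48, and the list was made of interferon-stimulated genes apart from Apod, an apolipoprotein, and Axl, a receptor kinase for dying cells. Axl had 5.76, 15.7, 151, 73.0 and 59.3 CPM there. Hp, Fn1, Gm20628, F13a1 and Ube2c were among the largest decreases, as were Lyz2, Mrc1, Gda, Cd14, Emp1 and Fcgr3. In Control 25, 1 cell held 33 of the 37 Gm20628 UMIs and 1 cell 31 of the 46 Hp UMIs.

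Cytokine RNA was sparse. Il12b, the chain shared by interleukins 12 and 23, had 0 UMIs in all 208 members. With 3 cells as the limit that a count of 0 allows, up to 4.55% of the cells could hold a UMI of Il12b in Control 11, the largest set, and up to 11.1% in the combination. This limits cells with a UMI, not cells that express the gene. Il15, which sustains NK cells and memory T cells, had 1, 1, 17, 11 and 3 UMIs, and its receptor chain Il15ra had 5, 0, 12, 6 and 3. Il27 had 0, 1, 0, 1 and 0. Il1b was abundant and not called, at 1101, 1851, 1766, 1122 and 1082 CPM. Of 12 tested cytokine genes only Osm, oncostatin M, was called with IFNa, falling from 53.0 and 44.6 to 21.4 and 14.3 CPM (−1.51 ± 0.37, adjusted p = 0.0460), a call lost in 9 alternatives, among them without Control 11 (0.281) and without IFNa 23 (0.346). Cxcl16, a chemokine for cells with the receptor CXCR6, rose with IFNa from 55 and 21.0 to 153 and 97.3 CPM (1.52 ± 0.36, adjusted p = 0.0364), a call lost in 6 alternatives, among them without IFNa 18 (0.071) and with Ccr7 at 0 (0.149). Ccl22, a chemokine for regulatory T cells, had 17, 3, 49, 0 and 0 UMIs, 34 of them in 1 cell of IFNa 18.

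Genes of division summed to 873, 2034, 1123, 506 and 396 CPM. In the median member they held 0.0576%, 0.0401%, 0.0467%, 0.0414% and 0.0330% of UMIs. Of 16 tested, 15 had a log2 fold change below 0 with IFNa (median −1.15). All 16 were below 0 in the combination against Control (median −2.92, or −1.39 with 5 genes set at their bound), and 0 were called there. Only Ube2c was called with IFNa, with 22, 21, 4, 1 and 2 UMIs, and 1 cell of Control 11 held 19. The call of Ube2c was lost in 6 alternatives, among them without Control 25 (adjusted p = 0.231) and without IFNa 23 (0.193). Mki67, a marker of dividing cells, had 41, 80, 32, 9 and 2 UMIs, 47 of them in 1 cell of Control 25, and was not called (adjusted p = 0.255).

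In the combination, the summed level of genes that interferon gamma induces stood above both other groups, but unevenly over the members. Combination members held 0.0171% to 1.87% of their UMIs in that list. The highest IFNa member held 0.379% and the highest Control member 0.559%. Many combination members lay within the range of the IFNa members. Against Control, 165 genes (2.06%) were higher and 38 (0.474%) lower. Against IFNa, 9 genes (0.112%) were higher and 6 (0.0749%) lower. The first comparison shares its Control libraries with that of IFNa against Control. Of 17 tested genes on the interferon-gamma-inducible list, 6 rose with IFNa against Control, 13 in the combination against Control and 6 in the combination against IFNa, and 0 fell in any of the 3, with median log2 fold changes of 1.13, 2.89 and 1.48. DESeq2 called 3, 7 and 2 of these genes in the same comparisons. Of the 63 type I interferon genes, 55 rose in the combination against Control and 0 were called against IFNa by edgeR or DESeq2, while 29 had an unadjusted p under 0.05. Against IFNa, 58 of the 63 had a log2 fold change above 0 and 5 below, with a median of 0.62. Without the droplets of other lineages, 2 of them were called as higher.

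Cxcl10 and Cxcl9, chemokines that draw activated T cells through the receptor CXCR3, rose most against IFNa. Cxcl10 had 8.31 and 78.7 CPM in Control, 83.7 and 62.2 with IFNa and 1663 in the combination, a log2 fold change of 4.53 ± 0.50 against IFNa (adjusted p = 0.000965), or 23.1-fold. It was detected in 3, 2, 8, 9 and 12 members, and 1 cell of the combination held 145 of its 558 UMIs. Cxcl9 had 65.4, 0, 1.78, 31.1 and 382 CPM (4.38 ± 0.77 against IFNa, adjusted p = 0.0310), and 1 cell held 65 of the 128 UMIs in the combination. DESeq2 called neither against IFNa (adjusted p = 0.406 for Cxcl10 and 1 for Cxcl9), and with Ccr7 at 0 in each member Cxcl9 was not called by edgeR (0.0679). The 2 genes neighbour each other on chromosome 5 (GRCm38, 92346638 to 92348889 and 92321347 to 92328079).

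The interferon-induced GTPases, which attack vacuoles that hold microbes, followed. Gbp2 had 43.6, 13.1, 39.2, 41.5 and 396 CPM (3.29 ± 0.38 against IFNa, adjusted p = 0.000965) and Gbp5 had 39.5, 15.7, 37.4, 37.6 and 233 CPM (2.63 ± 0.38). Neither was called with IFNa against Control. Iigp1 had 5.19, 0, 62.3, 71.3 and 411 CPM and was called both with IFNa against Control (4.10 ± 0.50) and in the combination against IFNa (2.62 ± 0.32). Igtp, at 37.4, 41.9, 74.8, 96.0 and 265 CPM, was the sixth list gene called against IFNa. With Ccr7 at 0 in each member, the calls of Gbp5 (1.99, adjusted p = 0.107) and Igtp (1.54, 0.0679) against IFNa were lost, and without IFNa 18 those of Igtp (0.107) and Irf1 (0.0945). Irf1, the factor that drives many of these genes, had 136, 147, 153, 205 and 572 CPM and was called against IFNa (1.67 ± 0.27, adjusted p = 0.0145) but not with IFNa against Control (adjusted p = 0.769). The feedback inhibitor Socs1 had 58.2, 23.6, 44.5, 70.0 and 236 CPM (2.36 ± 0.40 against Control, adjusted p = 0.00247, and 0.0526 against IFNa).

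Kdr, the VEGF receptor known from endothelium, and Ly6i, a relative of Ly6a outside the rule for naming genes, were the other 2 genes that rose against IFNa. Ly6i had 5.19, 2.62, 33.8, 55.8 and 185 CPM. Kdr had 10.4, 7.87, 51.6, 64.8 and 271 CPM and was detected in 5, 1, 9, 19 and 11 members. Its log2 fold change was 2.57 ± 0.37 with IFNa against Control and 2.21 ± 0.30 in the combination against IFNa. The second value was 1.31 and not called with at least 2 UMIs of Cd209a required (adjusted p = 0.288). The endothelial marker Pecam1 was not called, at 34.3, 34.1, 48.1, 48.0 and 41.7 CPM. Summed over 6 endothelial genes including Kdr, the level was 67.5, 41.9, 99.7, 114 and 316 CPM.

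Among the genes that were lower in the combination, Mgl2 stood out. This lectin, one of the markers by which the subset is known, had 110 and 249 CPM in Control, 148 and 106 with IFNa and 0 in the combination. Set against 3 counts, it was at least 13.8-fold lower than with IFNa (adjusted p = 0.0145) and at least 16.7-fold lower than in Control (adjusted p = 0.000655). In the combination 0 of 27 members had a UMI, and 22.7%, 26.3%, 18.6% and 20.8% had one in the other libraries. In Control 25, 1 cell held 51 of the 95 UMIs. DESeq2 did not call Mgl2 against IFNa (adjusted p = 0.0723). Mgl2 lies on chromosome 11 (GRCm38, 70130329 to 70137550) next to Clec10a (70156197 to 70170834), which had 173 CPM in the combination.

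Ccl17, a chemokine for T cells that carry CCR4, had 134, 110, 187, 35.0 and 0 CPM. It was at least 14.2-fold lower in the combination than in Control (adjusted p = 0.0283) and was not called against IFNa (adjusted p = 0.198). The first call was lost without Control 11 (adjusted p = 0.0574) and without the members of highest UMI count (0.194). It was detected in only 9, 2, 5, 6 and 0 members, and 1 cell of Control 25 held 37 of its 42 UMIs. Ier3, an early response gene linked to cell survival, had 218, 246, 206, 237 and 26.8 CPM (−3.04 ± 0.42 against IFNa, adjusted p = 0.00350). The junction protein F11r (114, 78.7, 81.9, 77.8 and 5.96 CPM), the inhibitory sialic acid receptor Siglece (92.4, 83.9, 90.8, 88.2 and 8.94 CPM) and the phosphodiesterase Smpdl3a (238, 184, 150, 180 and 32.8 CPM) fell too. DESeq2 did not call these 3 against IFNa (adjusted p = 0.316, 0.258 and 0.0901), nor did edgeR with Ccr7 at 0 in each member (0.0679, 0.057 and 0.088). The sixth gene lower than with IFNa was Ccl5, for the droplets given above.

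Against Control, the combination also lacked Arhgap24, Pygl, Sh2d1b1 and Mmp14, each with 0 UMIs in its 27 members. Their bounds were small, from at least 3.33-fold to at least 4.82-fold lower. Without Control 11 the calls of Pygl (adjusted p = 0.101), Sh2d1b1 (0.0698) and Mmp14 (0.0782) were lost. Of 19 tested genes that rise when tissue is dissociated, 3 fell in the combination against Control: Egr1 (233, 220, 176, 92.1 and 29.8 CPM), Nr4a1 (298, 354, 267, 235 and 128 CPM) and Ier3. In Control 25, 1 cell held 51 of the 84 Egr1 UMIs. The call of Nr4a1 was lost without IFNa 18 (adjusted p = 0.0543). The other 16 were not called, among them Zfp36 and Junb at 1649 and 1317 CPM in Control 11. The summed level of the dissociation genes was 8364, 9307, 9394, 6449 and 7378 CPM. As the combination is 1 library, a feature of that liver or library and an effect of the treatment cannot be told apart.

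Shares of members with a UMI were compared at 1 depth, with each member thinned to 3000 UMIs and none left out. Fcgr1 was then detected in 15.2% and 26.3% of Control members, in 48.8% and 28.3% with IFNa and in 63.0% in the combination. Clec10a was detected in 48.5% and 47.4%, in 23.3% and 18.9%, and in 18.5%. Cxcl10 was detected in 4.55%, 5.26%, 9.30%, 7.55% and 40.7%. Before thinning the Cxcl10 shares were 4.55%, 10.5%, 18.6%, 17.0% and 44.4%. Free RNA in the droplets gives a floor for such shares, which was read in T cells with a receptor contig and Cd3e, of median depth 6401.5 to 7905 UMIs. At the same thinning, 0% to 1.18% of T cells had Clec10a, 1.56% to 7.12% had Fcgr1 and 1.56% to 7.99% had Cxcl10. The Control and IFNa shares of Cxcl10 are near that floor, and those of Clec10a and Fcgr1 are above it.

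The effect of IFNa in these cells was set against that in cDC1, gated by Xcr1 in place of Cd209a. The test of the difference used 4 libraries, since Control 25 held only 4 such cells, and 40, 49, 53 and 24 cells entered from Control 11, IFNa 18, IFNa 23 and the combination. Of 9142 genes, 0 were called (0%), while 406 had an unadjusted p under 0.05. Among 63 interferon genes the median difference in log2 fold change was −0.17, against −0.02 over all genes. Such a miss of the threshold does not show that the responses were alike. When cDC1 were gated by Xcr1 or Clec9a, which brought in Control 25 with 6 cells, 14 genes were called, and 7 without the droplets of other lineages. The median difference over the 63 interferon genes was −0.37 with this gate, against −0.05 over all genes. The difference was above 0 for 5 of the 14 and below 0 for 9, which included the keratins Krt7, Krt8 and Krt18. H2-Q7 rose more in cDC2 (difference 1.92 ± 0.31, adjusted p = 0.0112), with cDC1 levels of 93.9, 61.7, 234, 322 and 282 CPM. Ifi205 also had a larger fold change in cDC2 (difference 2.05 ± 0.25), but from a lower level. It had 59.2, 39.3, 320, 309 and 653 CPM in cDC2 and 765, 808, 1004, 1122 and 1381 CPM in cDC1. H2-Q7 and Ifi205 were picked after their values were seen.

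Set against classical monocytes, gated by Ccr2, Csf1r and at least 5 UMIs of Lyz2 without Cd209a and Flt3, 86 of 11552 genes were called (0.744%). The monocytes numbered 1387, 197, 1208, 779 and 532. Of 65 interferon genes tested, 0 rose more in cDC2 and 3 rose less: Bst2 (difference in log2 fold change −1.01 ± 0.21), Phf11b (−1.02 ± 0.23) and Lgals3bp (−1.18 ± 0.25). The median difference over these genes was −0.34, against 0.00 over all genes. Bst2, a tether that holds virus at the membrane, went from 260 and 252 to 646 and 670 CPM in cDC2 and from 167 and 178 to 860 and 987 CPM in monocytes.

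**Figure D5:**
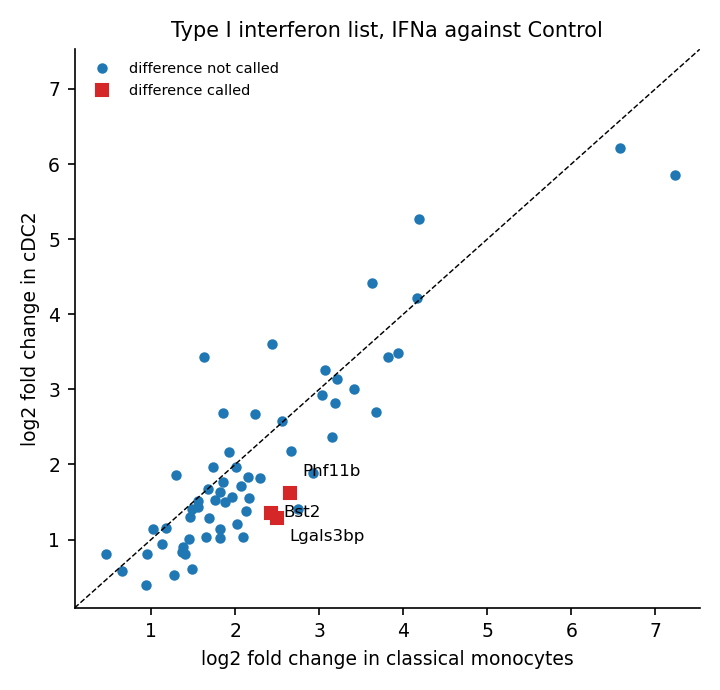
Log2 fold change of IFNa against Control for each gene of the type I interferon list in classical monocytes (horizontal) and in cDC2 (vertical), with the line of equal change dashed. Most genes lie near or below the line, and the 3 called differences, Bst2, Phf11b and Lgals3bp, lie below it.

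Several genes that fell in cDC2 did not fall to the same extent in monocytes, by the same test. The monocyte gate required Ccr2, Csf1r and Lyz2 in every library, whereas the cDC2 gate set no limit on these genes. Whether that selection bears on the differences was not tested. Clec4n went from 81.4 and 84.0 to 126 and 226 CPM in monocytes (difference −2.85 ± 0.37, adjusted p = 8.54e-05). Cebpb had 2442, 2091, 2259 and 2245 CPM in the Control and IFNa monocyte libraries (difference −1.19 ± 0.22, adjusted p = 0.00558). Hp stood at 903, 769, 738 and 477 CPM in the Control and IFNa libraries there (difference −4.43 ± 0.63). Irf8 went the other way, with 180, 230, 193 and 278 CPM in those monocyte libraries and a difference of 1.52 ± 0.35 (adjusted p = 0.0336), which was not called without the droplets of other lineages (1.25, adjusted p = 0.137). These 4 genes were picked after their values were seen.

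Markers of further cell types gave few calls, and their levels differed from list to list. The cDC1 list, which includes 2 genes that the gate held at 0, summed to 397, 629, 424, 451 and 373 CPM. Of its 3 tested genes, 0 were called. The basophil list was at 0 UMIs in all 5 libraries. The Kupffer cell list summed to 36.4, 0, 21.4, 23.3 and 62.6 CPM, the macrophage list to 27.0, 49.8, 17.8, 10.4 and 5.96 CPM and the neutrophil list to 29.1, 31.5, 7.12, 67.4 and 2.98 CPM. The hepatocyte list summed to 66.5, 78.7, 46.3, 54.5 and 14.9 CPM, and its tested gene Trf (transferrin) was lower in the combination than in Control (adjusted p = 0.00802). The B-cell list lay between 78.7 and 152 CPM with no call. The plasmacytoid list summed to 379, 493, 767, 778 and 1338 CPM, and the tested gene of it that rose, Bst2, is also an interferon gene. The mature dendritic cell list summed to 61.3, 52.4, 328, 115 and 209 CPM, where Il4i1 was called.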

How the data were processed

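The authors deposited UMI counts per gene and cell barcode from 10x Genomics libraries (single cell 3' v3.1, per the labels' protocols), made with Cell Ranger 7.0.1 on build mm10 per the submitters' processing notes. The T-cell receptor contig tables served only to find T cells, and the contig values were not used. The members and all gene lists were chosen with earlier results of these data known.

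Counts were summed per library over the members and tested with edgeR 4.0.16 (R 4.3.3): filterByExpr with a minimum count of 10, TMM normalization, a quasi-likelihood test, and Benjamini-Hochberg adjustment over all tested genes with a threshold of 0.05. The 5 libraries shared 1 fit, and the 10 gate genes were left out of the tests. SE is the log2 fold change divided by the root of the F statistic. The interaction of cell class and treatment was fitted the same way for classes with at least 5 cells in a library. The procedure was also run on simulated library counts with 1 common spread for all genes. That run held no single cells with outlying counts, so it cannot show how the tests handle them. Shares have exact (Clopper-Pearson) 95% intervals. Where a count was 0, the limit given is 3 counts of the total.

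Named genes were, for IFNa against Control, up to 12 each way of largest absolute log2 fold change among called genes whose higher group averaged 20 CPM or more and whose libraries did not overlap. For the comparisons of the combination they were up to 6 each way by the same rule. From each list came up to 6 called members and the 2 most abundant that were not called, besides genes fixed by name. No doublet caller was run, and members above the 95th percentile of UMIs were left out as an alternative. Figures used matplotlib 3.10.9. Alternatives were other gates, normalizations and filters, DESeq2 1.42.0 and leaving out each library. Some genes are not reported here.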

Additional observations from a re-analysis of the deposited data

Results flagged for a closer look

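The response to IFNa differed between cDC2 and classical monocytes, by the interaction test, for 86 genes. The 6 largest differences in each direction are given as log2 fold change in cDC2 minus that in monocytes.

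Il2rb (9.05), Skap1 (9.02), Ncr1 (8.91) and Gm2682 (8.72) had 0 UMIs in the cDC2 of both Control libraries, so these fitted values depend on the prior count and are no bound. In cDC2 their RNA with IFNa lay in 2 to 7 members of a library, and none of the 4 differences was called without the droplets that held RNA of other lineages.

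Ltf (8.75) and S100a9 (8.02), granule and calcium-binding proteins of neutrophils, changed in the monocytes: S100a9 had 835 and 2475 CPM in the Control monocytes and 80.6 and 5.26 with IFNa. In cDC2 it had 2.08, 2.62, 1.78, 20.7 and 0 CPM.

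Krt8 (−10.34) rested on Control 11, where 1 cDC2 droplet held 74 of 76 UMIs. Flt1 (−9.66), Nr1h3 (−9.08) and Plcb1 (−8.52) had 0 UMIs in the cDC2 of both IFNa libraries, so these fitted values are no bound either. Control cDC2 held only 5.19 and 7.87 CPM of Flt1 and 7.27 and 2.62 CPM of Nr1h3. Without the droplets of other lineages, the interaction test did not call Flt1 (adjusted p = 0.0575) and still called Nr1h3 (0.0401) and Plcb1 (0.0224). Plcb1 stood at 344, 368, 337, 195 and 266 CPM in monocytes and at 10.4 and 21.0 CPM in the Control cDC2.

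The globin genes Hbb-bs (−6.18) and Hbb-bt (−7.06) were higher in the monocytes of the IFNa libraries, where Hbb-bs had 229 and 187 CPM against 37.2 and 5.06 in Control. In cDC2, Hbb-bs had 18.7, 5.24, 1.78, 1.30 and 0 CPM.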

How the results depend on the processing

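For the 167 results on called genes, 2230 of 2435 values under the alternatives kept their direction and side of the threshold, 201 lost the call and 4 changed sign. The 4 were the differences between cDC2 and monocytes for Il2rb (−2.14) and Ncr1 (−2.31) without the droplets of other lineages and for Krt8 without Control 11 (from −11.61 to 0.97 when each library was left out), and Nkg7 in the combination against Control (−1.98) with Clec10a or Mgl2 required in each member. The cause was not tested. The alternatives of at least 200 genes and of libraries with at least 10 members kept the same members as the main gate. Their values, 155 each, could not differ and say nothing of robustness. The 170 genes called for IFNa against Control became 111 with Clec10a or Mgl2 required, 352 with no filter on low counts, 91 with DESeq2 and 162 to 332 when each library was left out. The 203 called for the combination against Control became 388 with no filter, 129 with DESeq2 and 298 to 444 on leaving out a library. The 15 called for the combination against IFNa became 30 with Clec10a or Mgl2 required, 9 with Ccr7 at 0, 25 without the droplets of other lineages, 68 with no filter, 6 with DESeq2 and 33 to 107 on leaving out a library. Differences from monocytes numbered 159 with no filter, 42 with the Control and IFNa libraries alone and 87 to 172 on leaving out a library, against 86. Differences from cDC1 numbered 59 with no filter, 2 with the Control and IFNa libraries alone (H2-Q7 and Cxcl9, named after their values were seen), 17 without the droplets of other lineages and 14 with cDC1 gated by Xcr1 or Clec9a, against 0, and leaving out a library could not be fitted there. The share with IFNa over Control was 0.310 times after thinning to 2000 UMIs against 0.482, and that of the combination 0.103 with Clec10a or Mgl2 required against 0.165. Of the type I interferon genes, 41 to 57 rose with IFNa over all alternatives, and 0 fell. The alternatives on droplets of other lineages and the wider cDC1 gate were chosen after seeing the data. No paired analysis was possible because the groups share no replicate numbers. Libraries of 19 to 66 members put the level of 3 counts at 3.12 to 8.94 CPM, which limits what can be seen of rare RNA.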
